A study of Mus musculus with 4 samples.

Results

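NK and cytotoxic lymphocyte genes were examined in bronchoalveolar lavage fluid (BALF) cells of bleomycin-administered mice. The 10 genes were the granule genes Gzma, Gzmb, Gzmk, Prf1 and Nkg7, the receptor genes Ncr1, Klrb1c, Klrk1 and Klrd1, and the transcription factor gene Eomes. A probe was taken as a member when the transcript accession printed with it on the array maps to one of these symbols, which gave 13 of the 39429 non-control probes. All 10 genes had a probe, with 2 probes each for Nkg7, Klrb1c and Eomes.

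RNA came from BALF cells, labelled alveolar macrophages, of wild-type and S1pr2-/- mice of a mixed 129Ola and C57BL/6J background. The mice were 8-10 weeks old when bleomycin was started. S1pr2-/- mice are null for S1pr2, a receptor of sphingosine-1-phosphate (S1P), in all cells, and the wild-type mice were their littermates. Both genotypes received intraperitoneal bleomycin at 0.035 U/g with 2 injections a week, and cells were collected at day 22. There were 2 one-color arrays per genotype, and no array without bleomycin was analysed here, so the comparison asks whether these genes differed with genotype in injured lungs. The sources used here do not say whether an array held the cells of 1 mouse or a pool, so that the p-values measure only the spread between these arrays.

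Cytotoxic granules of NK cells and CD8+ T cells carry granzymes, serine proteases that act inside the target cell, and perforin, which lets them in. NK cells decide on release through activating and inhibitory receptors, many of them encoded together in the NK gene complex, and the T-box factors Eomes and T-bet direct their development. In the mouse, Ncr1 and Klrb1c mark NK cells and related innate lymphocytes, whereas granzymes, perforin, Nkg7, Klrk1, Klrd1 and Eomes are also made by activated CD8+ T cells. RNA of mixed cells does not distinguish fewer cells of a type from less RNA per cell.

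The windows of 250 bases before the transcription start of 4 members are shown, because they hold a short motif that most members share. They were taken from RefSeq in the build GRCm38.p6 and run 5′ to 3′ on the strand of the gene. Capitals mark the Runx-type motif TGTGGT or its reverse complement ACCACA. Gzma and Gzmb encode granule proteases, and Ncr1 and Klrk1 encode activating receptors.
Gzma, chr13:113100982-113101231 (- strand): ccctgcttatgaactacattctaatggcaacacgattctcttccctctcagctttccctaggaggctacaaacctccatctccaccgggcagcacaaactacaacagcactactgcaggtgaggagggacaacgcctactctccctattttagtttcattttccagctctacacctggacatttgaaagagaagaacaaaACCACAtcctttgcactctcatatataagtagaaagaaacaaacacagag
Gzmb, chr14:56262335-56262584 (- strand): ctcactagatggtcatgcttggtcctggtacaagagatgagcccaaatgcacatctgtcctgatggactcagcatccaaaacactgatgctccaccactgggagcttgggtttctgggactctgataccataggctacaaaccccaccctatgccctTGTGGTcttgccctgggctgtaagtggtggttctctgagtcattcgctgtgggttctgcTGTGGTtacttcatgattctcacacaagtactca
Ncr1, chr7:4337465-4337714 (+ strand): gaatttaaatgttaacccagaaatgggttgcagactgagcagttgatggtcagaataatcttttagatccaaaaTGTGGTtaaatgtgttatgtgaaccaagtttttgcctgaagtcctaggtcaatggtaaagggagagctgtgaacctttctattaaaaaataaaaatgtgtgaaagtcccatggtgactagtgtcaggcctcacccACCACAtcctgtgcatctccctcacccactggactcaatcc
Klrk1, chr6:129623865-129624114 (- strand): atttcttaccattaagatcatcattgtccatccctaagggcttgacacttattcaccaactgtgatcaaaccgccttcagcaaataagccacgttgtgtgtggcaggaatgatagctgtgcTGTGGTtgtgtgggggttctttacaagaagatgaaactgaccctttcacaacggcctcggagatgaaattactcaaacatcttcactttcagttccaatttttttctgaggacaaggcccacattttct

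Of the 9 members with such a window, 7 held TGTGGT on either strand (Gzma, Gzmb, Prf1, Nkg7, Ncr1, Klrb1c and Klrk1), beside 15.9% of 27025 genes with a window of this length. The ETS-type motif GGAAGT was held by 3 (Gzmk, Prf1 and Klrb1c), beside 22.2% of genes. The T-box motif TCACACC was held by 2 (Gzmk and Nkg7), beside 3.84%, and the STAT-type motif TTCNNNGAA by 1 (Nkg7), beside 8.13%. No match of one motif overlapped a match of another in these windows. The Eomes window held none of the 4 motifs. A match describes letters and was not tested as a site of binding.

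On every array the 75th percentile of the processed signal lay between 2489 and 2817 intensity units and no spot was saturated. Of the non-control probes, 67.6% to 72.1% were well above background. Values below are the processed signal over this percentile, called the level, or its log2. The S1pr2 probe did not follow the genotype labels. In wild-type its log2 level was -0.13 and -0.16, against 2.67 and 2.54 in the arrays labelled S1pr2-/-, a 6.72-fold higher mean (adjusted p = 0.333 by limma over all probes). Where the probe lies with respect to the deleted part of the gene is not given in the sources used here. Every direction below is therefore that of the arrays labelled S1pr2-/-. Alveolar macrophage markers summed to levels of 553 to 625 on the 4 arrays, and the T cell markers Cd3e, Cd4 and Cd8a were well above background on all 4.

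Both genotypes held transcripts of the granule genes, and none differed between them beyond the spread of the arrays. Gzma encodes granzyme A, a tryptase. Its level was 2.70 and 7.03 times the 75th percentile in wild-type, against 3.43 and 1.70 under the label S1pr2-/-. The wild-type 2 array was highest, the S1pr2-/- 2 array lowest, and the other 2 arrays lay close together, so that the groups overlapped. The log2 level was 2.12 ± 0.98 in wild-type and 1.27 ± 0.72 in S1pr2-/- (SD, n = 2 arrays each), a difference of -0.85 with an SE of 0.67 and an adjusted p of 0.694 in limma's fit over all probes. The 1.81-fold lower mean was smaller than the 2.60-fold gap between both wild-type arrays.

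Gzmb encodes granzyme B, the protease that cleaves caspases in target cells. Levels of Gzmb were 0.138 and 0.403 in wild-type, against 0.151 and 0.125 in S1pr2-/-. Only the wild-type 2 array was high, and the other wild-type array fell between both arrays of the other label. The log2 difference of -0.78 (SE 0.62, adjusted p = 0.694 by limma) was again smaller than the gap between the wild-type arrays, which was 1.55 on the log2 scale.

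Gzmk and Prf1 were nearly level. Gzmk, encoding granzyme K, stood at 0.137 and 0.164 in wild-type and at 0.127 and 0.174 in S1pr2-/-, so that the S1pr2-/- arrays enclosed both wild-type ones. Prf1, which encodes the pore protein perforin, stood at 0.208 and 0.226 in wild-type and at 0.218 and 0.207 in S1pr2-/-. The 4 arrays agreed more closely on Prf1 than on any other member, and its log2 difference was -0.03 with a 95% interval from -0.26 to 0.20. For Gzmk the interval ran from -0.64 to 0.62 around a difference of -0.01. A change of Prf1 by 2-fold either way lies outside its interval, while the interval of Gzma runs from -2.89 to 1.18 and holds such a change in both directions.

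Nkg7, a granule membrane protein of NK and T cells that takes part in degranulation, was read by 2 probes. The probe A_51_P499195 gave levels of 0.626 and 0.996 in wild-type and 0.742 and 0.687 in S1pr2-/-. The probe A_55_P2009582 gave 3.67 and 5.44 in wild-type and 4.35 and 4.30 in S1pr2-/-. On both probes the S1pr2-/- arrays lay between the 2 wild-type arrays. Their log2 differences were -0.14 (SE 0.27) and -0.05 (SE 0.23), with adjusted p = 0.864 and 0.962 by limma.

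**Figure D1:**
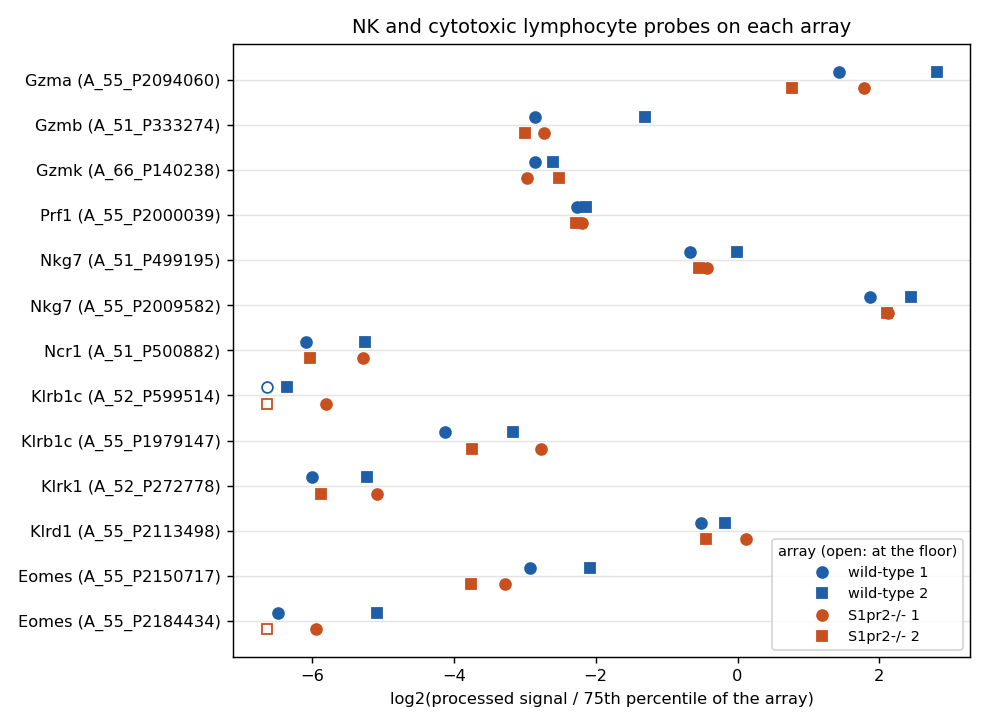
Log2 of the processed signal over the 75th percentile of the array (x axis) for the 13 probes of the 10 genes (y axis), with circles and squares for the arrays 1 and 2 of wild-type (blue) and of S1pr2-/- (orange) and open symbols for values at the floor of 0.01. The orange symbols lie below both blue ones for the Eomes probe A_55_P2150717 alone, and the blue square is the right-hand blue symbol on all 13 probes.

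In the mean of the S1pr2-/- arrays, the receptor genes were close to or above their wild-type level, without a difference that passed the test. Without the S1pr2-/- 1 array all of their differences were negative. Ncr1 encodes NKp46, an activating receptor of NK cells. Its level was 0.0147 and 0.0263 in wild-type and 0.0257 and 0.0153 in S1pr2-/-, well above background on all 4 arrays but near the floor of 0.01 that was set on the levels. Both labels had 1 higher and 1 lower array, in nearly the same places, and the log2 difference was 0.02 (SE 0.44).

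Klrk1 encodes NKG2D, the activating receptor for stress-induced ligands. Klrk1 levels were 0.0156 and 0.0266 in wild-type and 0.0293 and 0.0170 in S1pr2-/-. The highest value was on the S1pr2-/- 1 array and the lowest on the wild-type 1 array, and the log2 difference was 0.13 (SE 0.43, adjusted p = 0.933 by limma). Klrd1 encodes CD94, which pairs with NKG2 chains to read nonclassical MHC molecules. Klrd1 stood at 0.697 and 0.889 in wild-type and at 1.09 and 0.733 in S1pr2-/-, in the same order of arrays, with a log2 difference of 0.18 (SE 0.27, adjusted p = 0.821).

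Klrb1c encodes NK1.1, the marker by which NK cells of C57BL/6 mice are stained. Its probe A_55_P1979147 gave 0.0574 and 0.111 in wild-type and 0.147 and 0.0747 in S1pr2-/-, again with both labels spread over the same range and a log2 difference of 0.39 (SE 0.54, adjusted p = 0.807). The dimmer probe A_52_P599514 was at the floor on the wild-type 1 and the S1pr2-/- 2 arrays and at 0.0122 and 0.0178 on the others. On the wild-type 1 array it was not well above background, so that only the S1pr2-/- label had it detected on both arrays. Its log2 difference of 0.27 therefore sets floor values against measured ones in both groups. The Klrb1 genes are close relatives in sequence, and whether a probe reads more than 1 of them was not tested. The mice here were of a mixed background, and from which strain the receptor genes on each array came was not tested either.

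Groups were separated for 1 of the 13 member probes, which reads Eomes, beside 21.7% of all probes lower and 20% higher. The probe A_55_P2150717 gave levels of 0.131 and 0.236 in wild-type and 0.103 and 0.0738 in S1pr2-/-. Both S1pr2-/- arrays were below both wild-type arrays, by a 2.02-fold lower mean. Its log2 level was -2.51 ± 0.60 in wild-type and -3.52 ± 0.34 in S1pr2-/- (SD, n = 2 arrays each). The difference was -1.02 with an SE of 0.38, a 95% interval from -2.18 to 0.15, and an adjusted p of 0.540 by limma, and it did not pass the test. The gap between the 2 wild-type arrays was 0.85 on the same scale. The second probe, A_55_P2184434, gave 0.0112 and 0.0293 in wild-type and 0.0162 and the floor in S1pr2-/-. These groups overlapped, with a log2 difference of -0.51 (SE 0.61, adjusted p = 0.777).

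All 13 probes passed the filter on dim probes, which kept a probe detected over background by both arrays of one genotype or the other. None was called at an adjusted p under 0.05, as was 0% of the 27159 probes tested in either direction, so the absence of a call is not particular to these genes. At an unadjusted p under 0.05 there were 0 member probes, beside 5.59% of all probes lower and 3.99% higher. Groups did not overlap for 1 of 13 probes, which was lower, beside 21.7% of all probes lower and 20% higher. The mean was at least 2-fold lower for that probe and at least 2-fold higher for 0, beside 1.24% and 0.18%. The median log2 difference was -0.03 over the 13 probes and -0.003 over all probes. The count of probes without overlap turned on single arrays. Without wild-type 1 it was 8 lower and 0 higher, without wild-type 2 it was 1 lower and 6 higher, without S1pr2-/- 1 it was 5 lower and 1 higher, and without S1pr2-/- 2 it was 2 lower and 4 higher, beside 30.8% to 39.2% of all probes in each direction. The median over the 13 probes ran from -0.33 without wild-type 1 to 0.19 without wild-type 2. An exact permutation test of 1 probe cannot give a p below 0.333 with 2 arrays against 2.

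The split by role was one of sign only. All 6 granule probes and both Eomes probes had a negative log2 difference, with a median of -0.10 for the granule probes, and all 5 receptor probes had a positive one, with a median of 0.18. That makes 8 of 13 lower, beside 50.6% of all probes. The dimmer Klrb1c probe passed the filter through the S1pr2-/- label alone, where its mean was higher. Its sign therefore lends nothing to the split. Each of these receptor differences was smaller than the gap between the arrays of either label. Under quantile normalization Gzmk and Prf1 turned to 0.05 and 0.01, with a normexp background correction chosen after seeing the data Ncr1 and Klrk1 turned to -0.07 and -0.004, and without the S1pr2-/- 1 array the differences of all 4 receptor genes were negative, from -0.36 to -0.10. The differences of Gzma and Gzmb were -0.16 and -0.0017 without the wild-type 2 array and -1.54 and -1.55 without wild-type 1. That of Gzma was also -1.36 without S1pr2-/- 1 and -0.35 without S1pr2-/- 2. The difference of the brighter Eomes probe ran from -1.44 without wild-type 1 to -0.59 without wild-type 2.

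**Figure D2:**
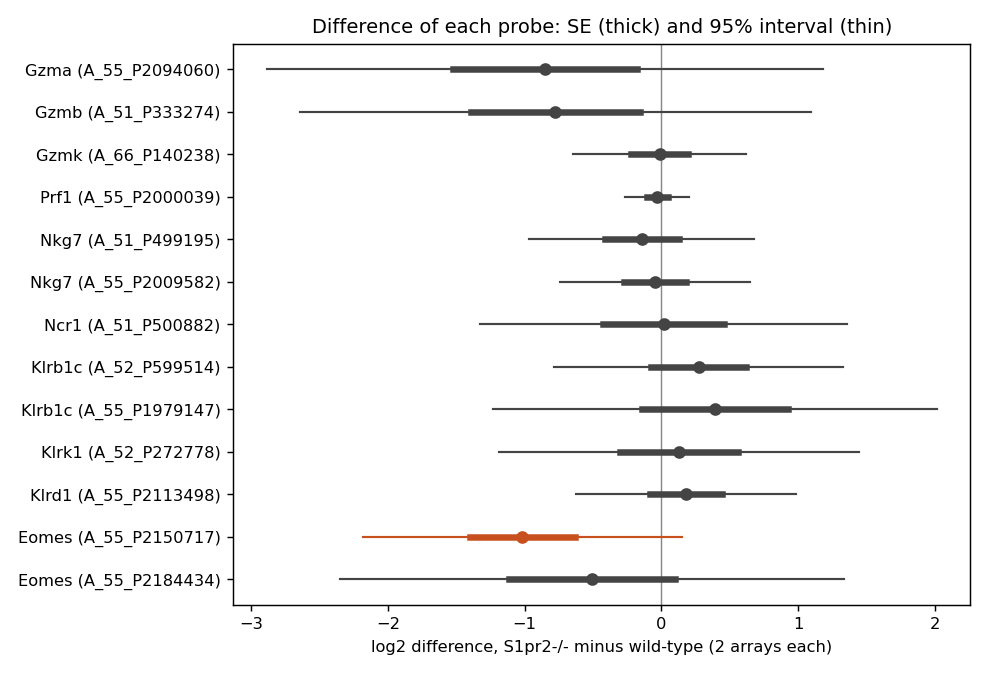
Log2 difference, S1pr2-/- minus wild-type (x axis, 2 arrays each), of the 13 probes (y axis) with its SE as a thick bar and its 95% interval as a thin bar from limma's fit, and the probe whose groups do not overlap in orange. Every interval holds 0, from the narrow one of Prf1 to that of Gzma, which spans -2.89 to 1.18.

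What the member probes shared was the order of the arrays within each label. The wild-type 2 array was above the wild-type 1 array on 13 of 13 probes, beside 43.9% of all probes tested. The S1pr2-/- 1 array was above the S1pr2-/- 2 array on 12 of 13, beside 44.8% of all probes, and Gzmk was the exception. For 12 of 13 probes the gap between the wild-type arrays was larger than the difference between the labels, beside 51.7% of all probes. The brighter Eomes probe was the exception here, and over 1 probe per named gene the share was 50.3%. The 13 probes come from the same 4 RNA samples and some read the same gene, so they do not count as separate observations of this order.

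With each probe centred on its mean over the 4 arrays, the median of the receptor probes was -0.43 and 0.28 in wild-type against 0.46 and -0.29 in S1pr2-/-, in log2 units. For the granule probes it was -0.26 and 0.36 against -0.02 and -0.09. For Eomes it was -0.18 and 0.94 against -0.09 and -0.68. For the receptor probes the medians within each label lay further apart than those of the labels did. The median over all 13 spanned 0.61 from its lowest to its highest array, under the span of 1 that was asked for before genes of like profile would be named, so none is named.

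**Figure D3:**
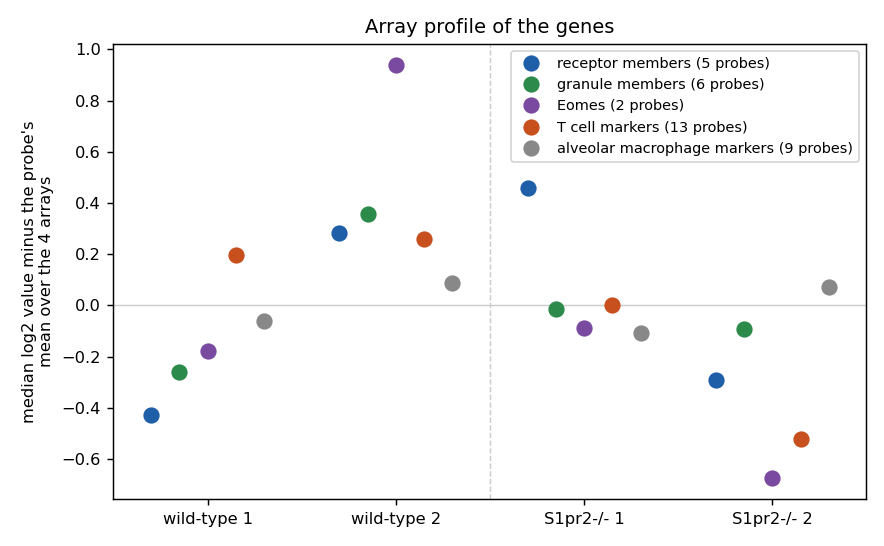
Median over the probes of each set of the log2 value minus the mean of the probe over the 4 arrays (y axis), for each array (x axis). Receptor members are highest on the S1pr2-/- 1 array at 0.46 and granule members and Eomes on the wild-type 2 array at 0.36 and 0.94, while alveolar macrophage markers stay between -0.11 and 0.09.

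The T cell list shared this order for most of its genes. The wild-type 2 array was above wild-type 1 for 10 of 13, beside 44.4% of all named genes. Cd3g and both CD8 genes, Cd8a and Cd8b1, were the exceptions. The S1pr2-/- 1 array was above S1pr2-/- 2 for 11 of 13, beside 45.1%. For alveolar macrophage markers the counts were 8 and 4 of 9. All 13 T cell genes were tested and had a negative log2 difference. Both S1pr2-/- arrays were below both wild-type arrays for 8 of them, beside 21.9% of all named genes, 0 were called, and the median was -0.47. Summed levels of the list were 59.2 and 67.3 in wild-type and 51.3 and 53.3 in S1pr2-/-. The log2 level of Cd3e, a chain of the T cell receptor complex, was 1.96 and 2.18 against 2.00 and 1.50, and that of Cd8a, the co-receptor of cytotoxic T cells, was -1.77 and -1.82 against -2.03 and -2.69. For Cd4, the co-receptor of helper T cells, it was 1.14 and 1.38 against 1.13 and 1.24. The T cell genes were lowest on the S1pr2-/- 2 array at the median, as was Eomes. The part of T cells in the member values was not tested.

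Genes of type 2 innate lymphoid cells, which share factors with NK cells, had a lower S1pr2-/- mean for 5 of 5 tested, beside 49.5% of all named genes, with 4 not overlapping, beside 21.9%, and 0 called. Il1rl1, the receptor of interleukin-33, stood at log2 levels of 0.48 and 1.94 against -0.23 and -0.71. Gata3, their lineage factor and one of helper T cells, stood at -0.85 and -0.39 against -1.19 and -1.66. Like Gzma and Gzmb, Il1rl1 was highest on the wild-type 2 array. Eosinophil markers had the same array on top, with summed levels of 2.08 and 6.62 in wild-type and 0.113 and 0.186 in S1pr2-/-. Which cells made Il1rl1 and the other genes of the innate lymphoid list was not tested. Nor was the part of innate lymphoid cells or eosinophils in the member values. B cell genes were highest on the wild-type 1 array instead, at a median of 1.15 above their mean in log2 units. None of the 5 mast cell and basophil genes was well above background on both arrays of a genotype.

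Around the members, 114 further genes of NK and cytotoxic lymphocyte biology were listed in 8 groups, 105 had a named probe, and 94 were tested with the brightest probe of each. None was called, as was 0% of the 15400 named genes tested in either direction. The groups did not overlap with S1pr2-/- lower for 25 of the 94 and higher for 12, beside 21.9% and 22.2% of all named genes. The mean was at least 2-fold lower for 3 and 2-fold higher for 1, which was S1pr2, beside 1.5% and 0.208%. At an unadjusted p under 0.05, 6 were lower and 1 higher, beside 5.96% and 4.55%. The mean was lower for 62 of the 94, beside 49.5% of named genes, and the median log2 difference was -0.08, beside 0 over all named genes. These lists were put together with results of these arrays known, so their counts are a description.

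The other granule genes had lower means more often than higher ones. Of 12 tested of 17, both S1pr2-/- arrays were below both wild-type arrays for 7 and above for 1. Over all named genes the shares were 21.9% and 22.2%. The median log2 difference of the list was -0.29. Gzmc, another granzyme, had the difference of the largest size, -1.03 (SE 0.41), followed by Unc13d, which primes granules for fusion, at -0.85 (SE 0.26), and Srgn, the proteoglycan that packs granzymes, at -0.66 (SE 0.31). Gzmm, a granzyme prominent in NK cells, had levels of 0.164 and 0.179 against 0.125 and 0.131. Its difference of -0.42 was small but the arrays of each label lay close together (SE 0.08, adjusted p = 0.509 by limma). Srgn and Unc13d are also made by myeloid cells. Among the 7 lower genes, Ctsc and Lamp1 differed by only -0.07 (SE 0.06) and -0.05 (SE 0.05). Their levels were 31.7 to 34.3 and 124 to 130. The probes of Gzmd, Gzme, Gzmf, Gzmg and Gzmn were below background in both genotypes by the filter.

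The wider list of NK receptors had no tendency to either side. Of 24 tested of 30, 3 had lower and 3 higher S1pr2-/- arrays without overlap, beside 21.9% and 22.2% of all named genes. The median was -0.02. Tigit, an inhibitory receptor of NK and T cells, had a log2 difference of -0.86 (SE 0.41), and Klrb1b, the inhibitory relative of Klrb1c, one of 0.50 (SE 0.26). Klra1 and Klra4, of the Ly49 family that reads MHC class I, had -0.42 (SE 0.20) and -0.37 (SE 0.62). As with the member receptors, the S1pr2-/- 1 array was above the S1pr2-/- 2 array for 21 of 24 genes, beside 45.1% of all named genes, and the wild-type 2 array above the wild-type 1 array for 17 of 24, beside 44.4%. Klra genes resemble each other closely, and whether their probes read more than 1 of them was not tested.

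Signalling genes were mixed. Of 13 adaptors and kinases tested of 14, 5 were lower and 2 higher without overlap, beside 21.9% and 22.2% of all named genes. Their median was -0.10. Sh2d1a, encoding the adaptor SAP of NK and T cells, stood at log2 levels of -2.22 and -2.02 against -2.86 and -3.33, a difference of -0.97 (SE 0.21). Lck, the kinase of the T cell receptor, differed by -0.77 (SE 0.19), Lat by -0.52 (SE 0.23) and Cd247, the zeta chain, by -0.33 (SE 0.26). Among 10 genes of cytokine input tested of 12, 0 were lower and 2 higher without overlap, beside the same 21.9% and 22.2%. Their median was 0.01. The receptor chains Il12rb1, Il2rb, Il18rap and Il21r had log2 differences of -0.39, -0.36, -0.30 and -0.23, all with overlapping groups.

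Within the 8 lists, the differences of the largest size after that of S1pr2 were those of 2 secreted effectors. Of 9 tested, 4 had both S1pr2-/- arrays below both wild-type arrays and 0 above, beside 21.9% and 22.2% of all named genes. The median of the list was -0.28. Levels on the log2 scale for Ccl4, a chemokine released by activated lymphocytes and macrophages, were -0.33 and 0.60 against -1.18 and -1.50. The difference of Ccl4 was -1.48 (SE 0.39, adjusted p = 0.515 by limma), a 2.78-fold lower mean. Ifng, encoding interferon-γ, stood at -2.33 and -0.90 against -3.02 and -2.87, a difference of -1.33 (SE 0.57, adjusted p = 0.555) or 2.52-fold. The wild-type 2 array was again the highest for both genes. Ccl3 and Tnfsf10, which encodes the death ligand TRAIL, differed by -0.36 (SE 0.14) and -0.33 (SE 0.12).

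Of the 9 transcription factors tested of 10, 2 were lower and 2 higher without overlap, beside 21.9% and 22.2% of all named genes. Their median was -0.23. Nfil3, a factor needed for NK cell development that macrophages make too, stood at log2 levels of 2.26 and 2.44 against 1.80 and 1.81. Its difference of -0.55 had an SE of 0.09 and an adjusted p of 0.509 by limma. Ets1 differed by -0.59 (SE 0.23), Runx3, a Runx factor of cytotoxic lymphocytes, by -0.25 (SE 0.28) and Tox by -0.24 (SE 0.33). Ligands of NK receptors, 12 tested of 17, had a median of -0.04. Clec2d, the ligand of Klrb1 receptors, differed by -0.76 (SE 0.29), Raet1e and H60c, ligands of NKG2D, by -0.28 (SE 0.13) and 0.27 (SE 0.21), and Cd48 by 0.14 (SE 0.18).

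Of the S1P receptors besides S1pr2, S1pr5 is the one known for the exit of NK cells from bone marrow and lymph nodes. Its log2 level was -4.73 on the wild-type 1 array and at or near the floor on the other 3, so its difference of -0.90 (SE 0.75) rests on that array. S1pr1 differed by -0.77 (SE 0.37) and S1pr4 by -0.32 (SE 0.14). Of the 5 receptors tested, these 2 were lower without overlap and 1, S1pr2, was higher, beside 21.9% and 22.2% of all named genes. For S1pr1 the gap between the wild-type arrays was 0.78, larger than its difference.

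**Figure D4:**
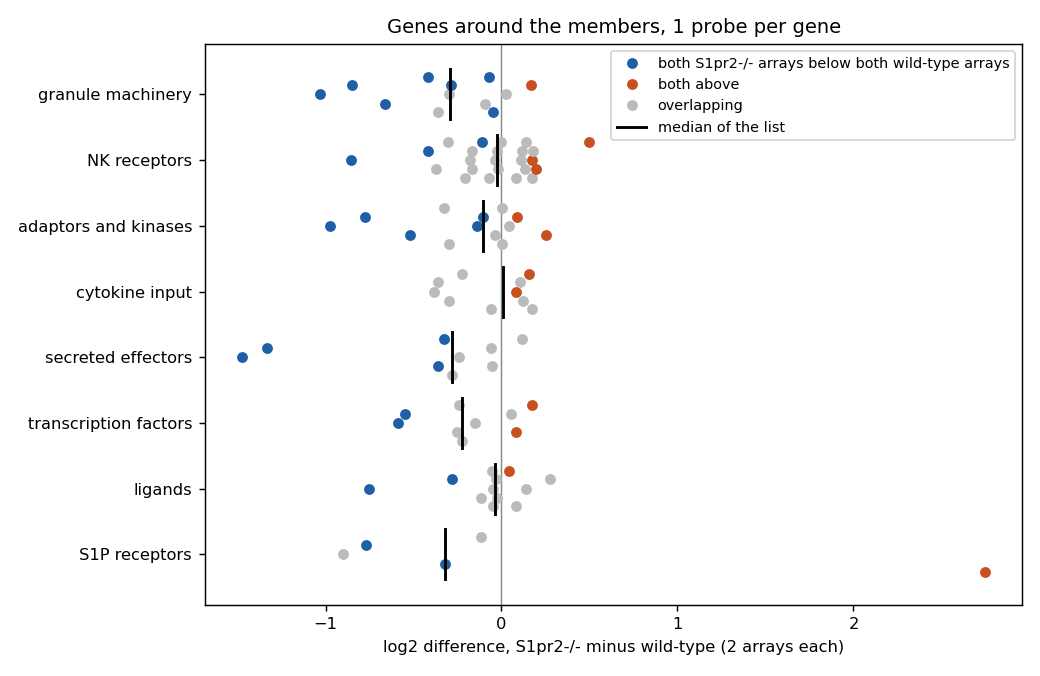
Log2 difference, S1pr2-/- minus wild-type (x axis, 2 arrays each), of the 94 tested genes of 8 lists (y axis), 1 probe per gene, coloured by whether the arrays of both labels overlap, with a black line at the median of each list. Secreted effectors reach furthest to the left among the lists, with Ccl4 at -1.48, NK receptors lie around 0, and the point at 2.75 is S1pr2.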

How the data were processed

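BALF cells were measured on 4 one-color Agilent arrays, all on 1 slide with 1 scan. The authors deposited each spot's processed intensity from Feature Extraction, background-corrected, and a table of log2 values. The Feature Extraction version was 10.7.3.1 per the submitters' processing notes and 11.0.1.1 per the file headers. Within 0.01, the table equalled log2 of the intensity over the 75th percentile, less the probe's wild-type mean and a constant per array. It was used as an alternative. Outlier-flagged spots (115 to 273 per array) were left out, intensities were divided by the 75th percentile, floored at 0.01, set on the log2 scale and averaged over spots of a probe. limma 3.58.1 in R 4.3.3 (lmFit, eBayes) was fitted to the 27159 of 39359 measured probes flagged well above background by both arrays of one genotype or the other, with Benjamini-Hochberg adjustment over all of them. Accessions were named through RefSeq (GRCm38.p6) for 69.6% of probes. The array headers name another build, so no coordinates of probes are given, and those of the promoter windows are in GRCm38.p6, matched by symbol for 9 of 10 members. Precision is limited by the number of arrays. The script was tested on simulated data.

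The members and gene lists were chosen with earlier results of these data known. The genes named are all members, of each list the 4 with the largest absolute log2 difference, Cd3e, Cd4, Cd8a, Il1rl1 and Gata3, and S1pr2, and 5 genes of like profile only if the members' profile spanned 1. Ctsc, Lamp1, Cd3g and Cd8b1 are named besides, to describe the counts of their lists. The marker lists covered T, type 2 innate lymphoid and B cells, alveolar macrophages, neutrophils, eosinophils, mast cells and basophils, plasmacytoid dendritic cells, epithelium and erythroid cells. The alternatives were other normalizations, background corrections, filters, floors, tests and fits without each array.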

Additional observations from a re-analysis of the deposited data

How the results depend on the processing

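No member probe was called under any of the 17 alternatives to the fit over all probes, and adjusted p-values of member probes lay between 0.518 and 1. Over all probes 0 were called, except for 2 with a normexp background correction chosen after seeing the data, in which spots on S1pr2-/- 1 whose local background exceeded the signal (6 spots) took the median background. With all spots as they are, these spots shifted the normexp fit of that array, where the 10th percentile of the corrected signal was 495, beside 66.3 to 68.4 on the others. In that fit 0 member probes were lower and 1 was higher without overlap, and Prf1, the dimmer Eomes probe and Gzmk turned to 0.18, 0.68 and 0.44. The median of all probes moved there to 0.19. With the median background Gzmk turned to 0.0719, Ncr1 to -0.0666 and Klrk1 to -0.0045. Under quantile normalization, which moved the median of all probes to 0.03, Prf1 turned to 0.0078 and Gzmk to 0.0523. With the percentile over detected probes, Ncr1 and the dimmer Klrb1c probe came to 0, since both groups were then at the floor.

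Leaving out 1 array changed the count of member probes without overlap to between 1 and 8 lower and between 0 and 6 higher, against 1 and 0 with all arrays, and turned 15 values in sign. The values ran from -1.54 to -0.16 for Gzma, from -1.55 to -0.0017 for Gzmb and from -1.44 to -0.59 for the brighter Eomes probe, lowest without wild-type 1 and highest without wild-type 2, and from -0.48 to 0.19 and from -0.33 to 0.24 for Nkg7, from -0.40 to 0.44 for Ncr1, from -0.26 to 0.52 for Klrk1, from -0.14 to 0.69 and from -0.10 to 0.88 for Klrb1c, from -0.0905 to 0.0297 for Prf1, from -0.10 to 0.46 for Klrd1, from -1.20 to 0.18 for the dimmer Eomes probe and from -0.24 to 0.21 for Gzmk. An arm of 1 array was assumed to vary like the other. In all, 169 of 194 recomputed differences kept their sign. With the replicate number as a block, limma called 0 probes, no call changed and the lowest adjusted p of a member was 0.543. The deviations of same-numbered arrays from the means of their genotypes had a correlation of 0.187 over the probes tested. The labels do not tie these numbers to a shared batch. The methods' t-test called 0 probes after adjustment. With 2 arrays per genotype, differences of the size seen for Gzma and Gzmb were not detectable, and probes near the floor, such as Ncr1, Klrk1 and the dimmer Klrb1c and Eomes probes, have little signal over background.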

Other observations

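Neutrophil markers had both S1pr2-/- arrays below both wild-type arrays for 4 of 7 genes tested, beside 21.9% of all named genes lower and 22.2% higher without overlap, with a median log2 difference of -0.28 and summed levels of 79.6 and 76.3 in wild-type against 69.2 and 62.6 in S1pr2-/-. Plasmacytoid dendritic cell markers had 2 of 4 without overlap, all lower, and a median of -0.19. Epithelial markers had 4 of 6 lower without overlap, at a median of -0.34, while 4 erythroid genes had a median of 0.44 with 2 higher without overlap. None of these genes was called by limma. Alveolar macrophage markers had a median of -0.03, with 2 of 9 lower and 2 higher without overlap.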
